A study of Homo sapiens with 4 samples.

Results

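The receptors of bradykinin and kisspeptin were described with 4 genes, of 25121 genes with a symbol on the arrays. They are BDKRB2 and BDKRB1, the B2 and B1 bradykinin receptors, and KISS1R and KISS1, the kisspeptin receptor and the precursor of its ligand. The genes were chosen by their measured values: BDKRB2 had a lower signal in PC3 cells with ESS2 knockdown, and KISS1R had one in DU145 cells. The knockdown differences below are therefore a description, and no test is given for them. All 4 genes were measured by 1 probe with 1 spot on each array.

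RNA of PC3 and DU145 cells, both androgen-independent prostate cancer cell lines, was measured on 1-colour Agilent arrays. PC3 came from a bone metastasis. PC3-shC and DU145-shC cells carried an shRNA against luciferase, and PC3-shESS2 and DU145-shESS2 cells carried an shRNA against ESS2, a transcriptional coregulator, with no drug treatment named in the labels. The labels describe delivery by lentivirus, whereas the methods of the study describe plasmid transfection of PC3 cells and selection with puromycin, and neither says whether a line is a single clone. There was 1 array per condition, so no difference within a cell line has a replicate check. The arrays of PC3 shared a slide and those of DU145 shared another, so cell line and slide cannot be told apart.

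Bradykinin is cut from kininogen by kallikreins and acts on the B2 receptor, which most tissues that respond to kinins carry at all times. Carboxypeptidases remove its last arginine, and the product acts on the B1 receptor, whose gene is switched on by interleukin-1, tumor necrosis factor and tissue injury. Kisspeptins are cut from the KISS1 product, first described as a suppressor of metastasis, and their receptor also drives gonadotropin-releasing hormone neurons. The 3 receptors couple to Gq proteins and phospholipase C, and kinin receptors have been studied in prostate cancer cell lines.

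The signal of ESS2 was 133 in PC3-shC, 53.6 in PC3-shESS2, 85.7 in DU145-shC and 17.3 in DU145-shESS2 cells, which is a log2 ratio of -1.45 in PC3 and -2.35 in DU145. Signals are the background-subtracted brightness of a spot, and ratios are of shESS2 over shC after each array was scaled to its 75th percentile. GAPDH and ACTB had ratios between -0.04 and 0.18. The epithelial genes KRT8, KRT18, EPCAM and CDH1 were well above background on all 4 arrays, while KLK3, a marker of luminal prostate cells, was above it on none. Of markers of other cell types, PTPRC, CD14, COL1A1, PDGFRB and VWF were well above background on all 4 arrays, and CD3E and COL3A1 on none. PECAM1, an endothelial and leukocyte adhesion molecule, gave 338 in PC3-shC and 16.4 in PC3-shESS2 cells, and CD14, a monocyte receptor, had 221 and 54.7. PTPRC had 59.7 and 60.0 there, VWF 24.4 and 30.4, PDGFRB 15.2 and 15.4, and COL1A1 265 and 197. The summed signal of the 4 leukocyte genes was 291 in PC3-shC, 124 in PC3-shESS2, 209 in DU145-shC and 325 in DU145-shESS2 cells. That of the 5 fibroblast and endothelial genes was 645, 262, 129 and 131. In PC3 the largest falls within these sums were those of CD14 and PECAM1. In DU145, EPCAM had 2120 and 357. What share these markers have in the receptor results was not tested.

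BDKRB2 and BDKRB1 lie next to each other on chromosome 14, with a pseudogene between them, and both had their high signal on the same single array. The 250 bases before the start of each are shown because both genes were bright on that array alone. The capitals mark the longest run that both windows share.
BDKRB2: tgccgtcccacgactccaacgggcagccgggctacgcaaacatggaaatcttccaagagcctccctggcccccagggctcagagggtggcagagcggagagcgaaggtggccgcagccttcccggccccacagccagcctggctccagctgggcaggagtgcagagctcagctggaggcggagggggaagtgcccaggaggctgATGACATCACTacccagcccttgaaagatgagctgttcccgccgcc
BDKRB1: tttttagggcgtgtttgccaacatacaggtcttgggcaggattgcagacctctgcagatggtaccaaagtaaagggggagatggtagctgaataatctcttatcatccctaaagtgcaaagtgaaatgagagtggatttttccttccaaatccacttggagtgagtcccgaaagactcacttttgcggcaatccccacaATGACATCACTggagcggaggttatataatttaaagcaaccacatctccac
The windows come from RefSeq on GRCh38.p14, plus strand, at chr14:96204589-96204838 for BDKRB2 and chr14:96255960-96256209 for BDKRB1. The shared run has 11 bases and begins 46 bases before the start of BDKRB2 and 51 before that of BDKRB1. It was found in 22 of 34796 promoter windows of 300 bases, which is 0.0632%. Of the 20 other genes with this run, 5 could be compared in PC3, and none differed by more than 2-fold there (median log2 ratio 0.11). One of these was CREM, a cAMP-responsive transcription factor, at 0.11. The bases of the windows were 66.4% G or C for BDKRB2 and 44.8% for BDKRB1.

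Short motifs were searched on both strands of the windows of 300 bases, which also take in the first transcribed bases. The cAMP response element TGACGTCA, which 1.84% of all promoter windows hold, was in none of the windows of BDKRB2, BDKRB1 and KISS1. The AP-1 motif TGANTCA, held by 7.73%, and the NF-κB consensus, held by 11.3%, were not in them either. The exact TATA box letters TATAAA, held by 11.6%, and the Sp1 motif GGGCGG, held by 44.9%, were in neither bradykinin receptor window. Variants of these letters were not searched. The window of KISS1, on the minus strand of chromosome 1, holds the TATA box on both strands, overlapping, 31 and 29 bases before its start, and the Sp1 motif 73 bases before it, and 63.6% of its bases are G or C. The window of KISS1R was not analysed here. A match or its lack describes these letters alone.

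BDKRB2 had a signal of 2820 in PC3-shC, 13.5 in PC3-shESS2, 9.16 in DU145-shC and 10.5 in DU145-shESS2 cells. The scanner software gives errors of 282, 2.62, 2.34 and 2.30 for these spots. Only PC3-shC cells were bright, and the other arrays were close to the lowest signal that counts as well above background, which lay between 8.15 and 9.02. BDKRB2 was thus 230-fold lower in PC3-shESS2 than in PC3-shC cells (log2 ratio -7.85, scanner error 0.31, and -5.33 with the normexp background correction). Of 15763 genes well above background on both arrays, 1 had a lower ratio, and genes with bounds cannot be placed. Differences past 2-fold were counted as calls. Over all 16764 genes compared in PC3, 3.87% had a ratio below this 2-fold limit and 3.88% were above it, with a median of -0.06. These values chose the gene, and nothing is read from the count.

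BDKRB1 was bright in PC3-shC cells as well, where its signal reached 941. On the other arrays it was dim, meaning not well above background, with 2.47 in PC3-shESS2, 2.34 in DU145-shC and 2.17 in DU145-shESS2 cells, and scanner errors as large as these signals. As the dim side has only an upper limit, BDKRB1 was at least 115-fold lower in PC3-shESS2 than in PC3-shC cells (log2 bound -6.85). With normexp the ratio was -3.89. Among the 6013 genes at least as bright as BDKRB1 in PC3-shC cells, 3 were not well above background in PC3-shESS2 cells. They were BDKRB1 and the genes of the acute-phase proteins SAA1 and SAA2. BDKRB1 was listed with these data known, so nothing is read from this count.

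**Figure D1:**
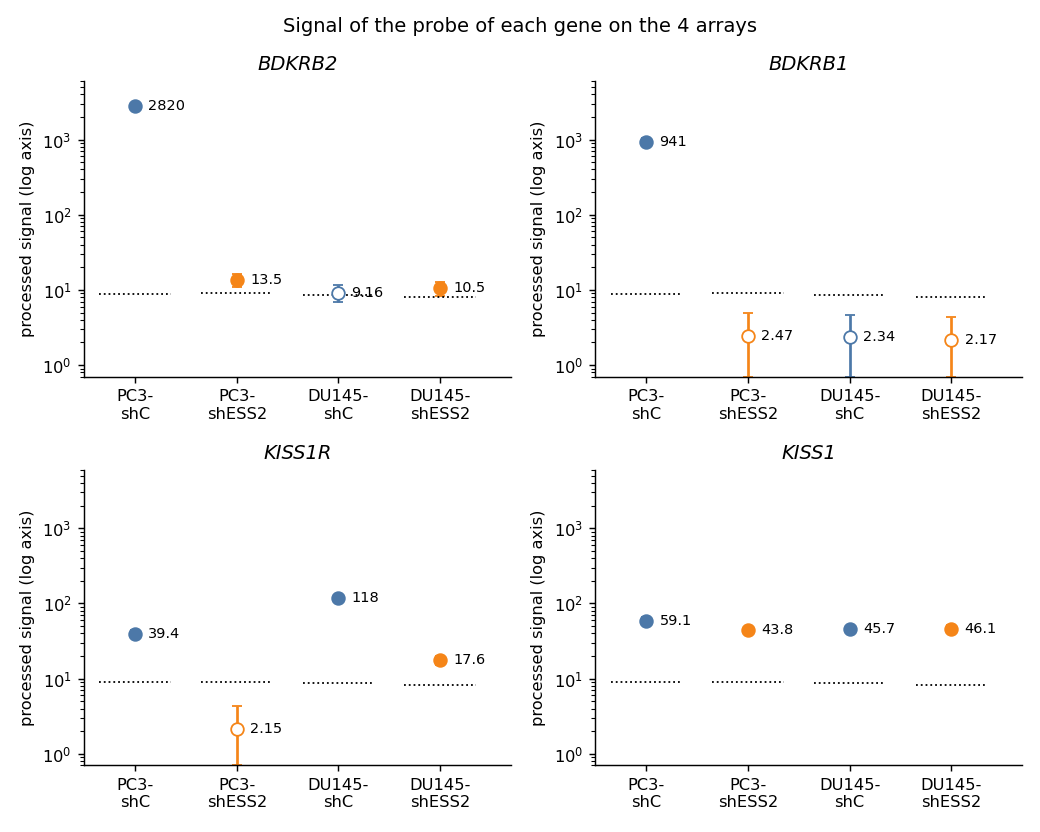
Processed signal (log axis) of the probe of BDKRB2, BDKRB1, KISS1R and KISS1 on the 4 arrays, with shC arrays in blue, shESS2 arrays in orange, and 1 spot per point. Bars are the scanner error and stop at the lower end of the axis, open points are not well above background, and dotted lines mark the lowest signal well above background on each array. BDKRB2 and BDKRB1 stand high in PC3-shC cells alone, at 2820 and 941, while KISS1 lies between 43.8 and 59.1 on all arrays.

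KISS1R had a signal of 39.4 in PC3-shC, 2.15 in PC3-shESS2, 118 in DU145-shC and 17.6 in DU145-shESS2 cells, with scanner errors of 4.46, 2.16, 11.9 and 2.57. Each shC array was above its shESS2 array, and only PC3-shESS2 was not well above background. In DU145-shESS2 cells KISS1R was 6.89-fold lower than in DU145-shC cells (log2 ratio -2.79, scanner error 0.26, and -1.25 with normexp). Of 15933 genes well above background on both arrays, 4 had a lower ratio. Over all 16842 genes compared in DU145, 2.47% had a ratio below the 2-fold limit and 2.36% were above it, with a median of -0.02. This ratio, too, chose the gene.

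In PC3, KISS1R was at least 4.82-fold lower with the knockdown (log2 bound -2.27). With normexp the ratio was -0.73, which is under 2-fold. Among the 13560 genes at least as bright as KISS1R in PC3-shC cells, 25 were not well above background in PC3-shESS2 cells. In DU145, GKN1 was the only one of 11047 such genes that was not. KISS1R was listed with these data known, so nothing is read from these counts. The PC3 and DU145 values of KISS1R rest on 1 array pair each, and their difference was not tested.

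KISS1, the ligand precursor, had a signal of 59.1 in PC3-shC, 43.8 in PC3-shESS2, 45.7 in DU145-shC and 46.1 in DU145-shESS2 cells, with scanner errors from 4.90 to 6.29. It was well above background on all arrays, with a narrow range. The log2 ratio was -0.57 in PC3 and -0.03 in DU145, each with a scanner error of 0.22. In PC3, 10.3% of all genes had a lower ratio, and in DU145 49.3% had one. Neither passed 2-fold, and in DU145 the sign turned with the scaling (0.001 with scaling to the median, 0.008 with quantile normalization).

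**Figure D2:**
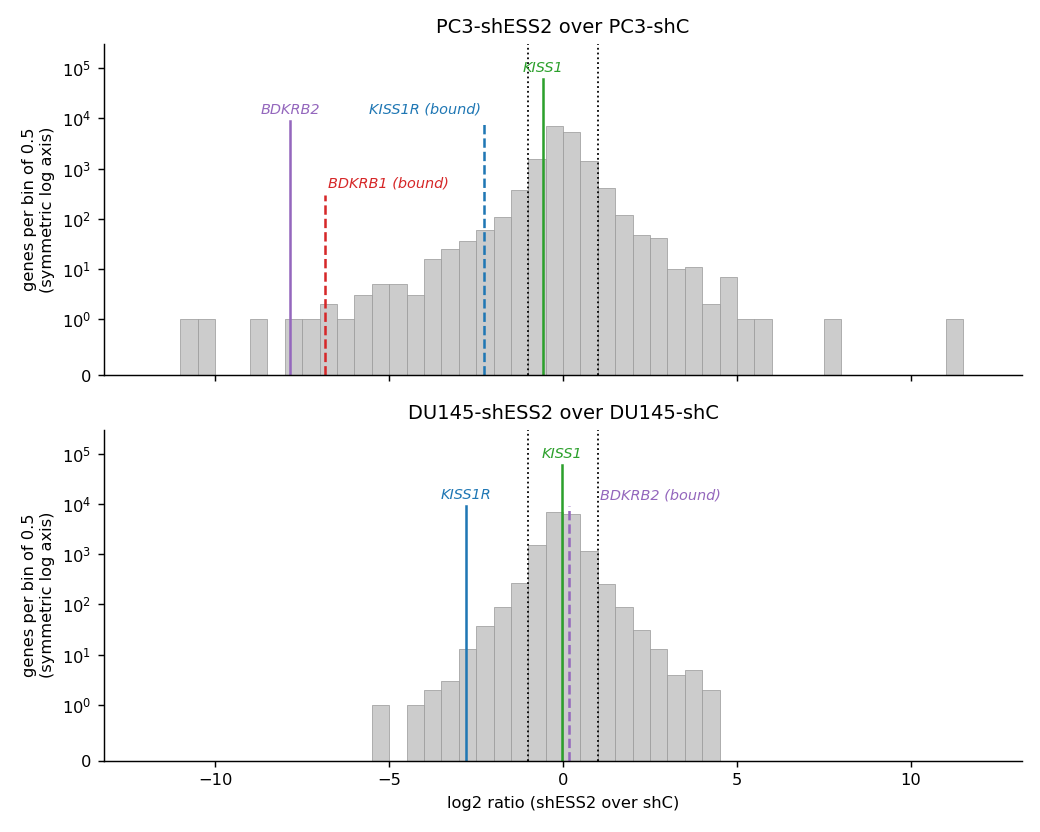
Number of genes (symmetric log axis) per bin of 0.5 of the log2 ratio of shESS2 over shC, for 16764 genes in PC3 (top) and 16842 in DU145 (bottom), with coloured lines at the bradykinin and kisspeptin genes. Dashed lines are ratios with an array not well above background, bounds except for BDKRB2 in DU145, and dotted lines mark 2-fold. BDKRB2 at -7.85 and BDKRB1 at -6.85 lie in the far left of PC3, KISS1R at -2.79 in that of DU145, and BDKRB1 has no ratio in DU145.

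The shC arrays of both lines were also set side by side. BDKRB2 was 248-fold higher in PC3-shC than in DU145-shC cells. Its dim DU145-shC signal of 9.16 lay above the lowest signal well above background there, 8.65, so this fold is no bound. BDKRB1 was at least 87.7-fold higher, while KISS1R was 3.72-fold lower (log2 ratio -1.89, scanner error 0.22). On the log2 scale these were 7.96, 6.45 and -1.89, and with normexp 5.02, 3.59 and -1.10. With the authors' scaled values they were 7.51, 6.01 and -2.34, so the bound of BDKRB1 holds for the processing used. KISS1 had a ratio of 0.06, with a negative sign under normexp and with the authors' scaled values. Between these arrays 19.9% of 17475 genes were lower in PC3-shC by more than 2-fold and 22.1% were higher, and line and slide cannot be told apart here. Among the genes at least as bright as BDKRB1 in PC3-shC cells, 67 of 6013 were not well above background in DU145-shC cells, and for BDKRB2 33 of 3273. Scaling to the median moved the ratios of all genes by 0.46 and the authors' scaling by -0.45, and the signs and the 2-fold calls of the 3 receptors held. The signal of BDKRB2 in PC3-shESS2 cells, 13.5, stood beside 9.16 and 10.5 in the DU145 cells.

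The genes whose pattern over the 4 arrays was nearest to each member were found among 18127 genes, with the distance taken between log2 values centred on their mean. Nearest to BDKRB1 were NRAD1, a long noncoding RNA, at 0.55, APOBEC3G, a cytidine deaminase, at 0.76 and BBOX1, an enzyme of carnitine synthesis, at 0.81. For BDKRB2 they were NRAD1 at 0.88, BDKRB1 at 1.13 and BBOX1 at 1.74. NRAD1 had signals of 1310 in PC3-shC and 13.7 in PC3-shESS2 cells, BBOX1 647 and 13.7, and APOBEC3G 513 and 2.13, and all 3 were not well above background in DU145 cells. Near KISS1R were RPRML at 0.83, CXCL2, a neutrophil chemokine, at 1.03 and CBX3P2 at 1.25. CXCL2 had signals of 14600 and 3960 in PC3 and 24400 and 9530 in DU145. KISS1, with its flat pattern, had MRS2 at 0.051, PROSER1 at 0.052 and SRF at 0.063.

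**Figure D3:**
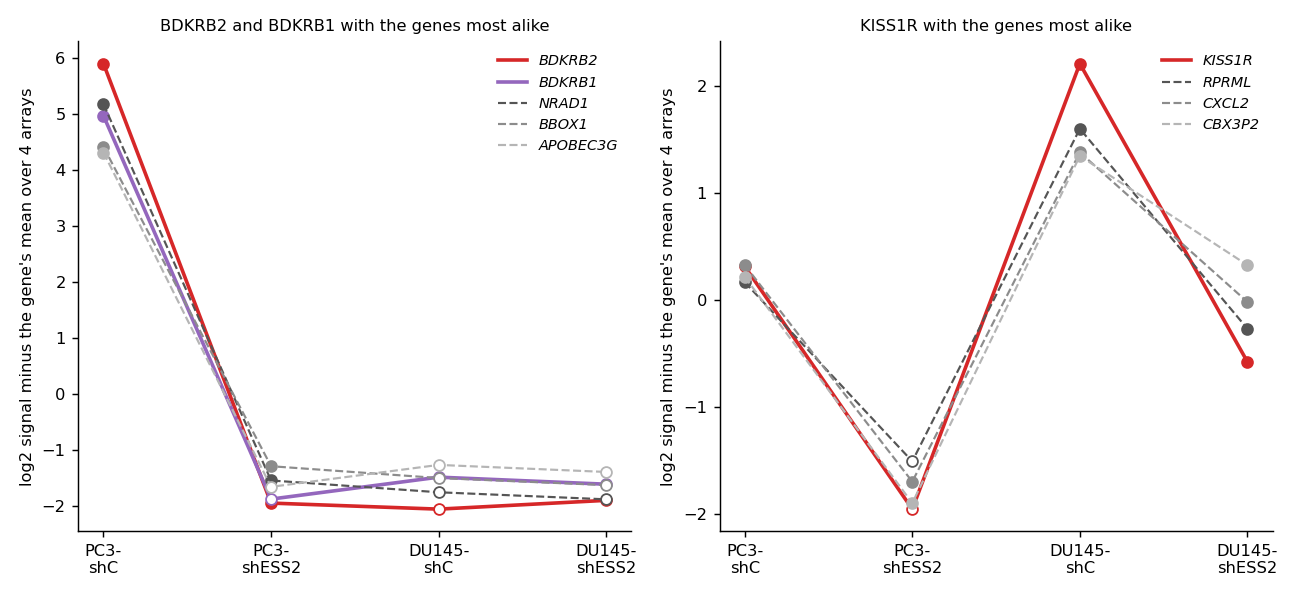
Log2 signal on each of the 4 arrays, centred on the mean of each gene, for BDKRB2 and BDKRB1 (left) and KISS1R (right) as solid lines and for the genes nearest to them as dashed lines. Open points are not well above background and are drawn at the limit of that array or at their own value where it is higher. The left genes are high in PC3-shC cells alone, and each gene on the right is lower on the shESS2 array than on the shC array of its line.

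Genes beside the members on the chromosomes were read from the RefSeq table. ATG2B, an autophagy gene beside BDKRB1, had ratios of 0.26 in PC3 and 0.14 in DU145, and C14orf132, before BDKRB2, was not well above background on any array. Around KISS1, GOLT1A had -0.74 in PC3, ETNK2 -0.43, ERLNC1 -0.41 and PLEKHA6 -1.09. Around KISS1R, GRIN3B, a glutamate receptor subunit, had signals of 32.6 and 79.5 in PC3 and 199 and 118 in DU145, and MED16, R3HDM4, ARID3A and WDR18 lay between -0.52 and 0.43. None of the neighbours measured in DU145 passed 2-fold there.

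The bradykinin pathway was followed through lists of genes, described by how many passed 2-fold beside the shares of all genes given above. Of 8 genes that release kinins or hold this back, 5 were compared in each line. None passed 2-fold in PC3 (median 0.13), and 1 was lower in DU145 (median -0.69), F12, which starts the plasma kallikrein cascade, at 4530 in DU145-shC and 2000 in DU145-shESS2 cells. The DU145 median was -0.111 with normexp and -0.125 without a filter, and the PC3 median was -0.105 with normexp. The genes of the kinin precursor and of plasma kallikrein, KNG1 and KLKB1, were not well above background. Of 13 measured peptidases that break kinins down, 12 were compared in PC3, where none was lower and 2 were higher (median 0.01, and from -0.112 to 0.181 over the alternatives). One of them was ANPEP, an aminopeptidase, at 211 and 513 (log2 ratio 1.14). With normexp neither of the higher peptidases passed 2-fold, and ANPEP was at 0.999. In DU145, 0 of 9 passed 2-fold (median 0.02).

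Of 5 genes listed as inducers of the B1 receptor, 3 were lower in PC3 and none higher (median -1.22, and -0.36 with normexp). IL1B, which encodes interleukin-1β, stood at 43800 in PC3-shC and 3170 in PC3-shESS2 cells (log2 ratio -3.93). IL1A had 90.5 and 21.7 (-2.20), and TNF had 22.8 and a dim 10.8 (-1.22). The NF-κB subunits NFKB1 and RELA, at -0.17 and 0.08, did not pass 2-fold. A link between these genes and BDKRB1 was not tested. IL1A and IL1B were not well above background in DU145 cells. There, TNF had 34.6 and a dim 3.98 (bound -2.13), 1 of 3 genes compared (median -0.66, with -0.152 without a filter and -0.272 with a filter on both arrays). With normexp TNF was under 2-fold in both lines, at -0.36 and -0.56.

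Among 9 effectors of kinin signalling, 3 of 7 compared in PC3 were lower and 1 was higher (median -0.46, and -0.07 without a filter). PTGS2, the inducible cyclooxygenase, had 3150 and 733, PLA2G4A, which frees arachidonic acid, had 948 and 229, and PTGES, the prostaglandin E synthase, had 1140 and 283. These steps of prostaglandin E2 synthesis had log2 ratios of -2.24, -2.20 and -2.15. IL6 had 3600 and 24400 (2.62). In DU145, 1 of 6 compared was lower, CXCL8 at 1900 and 435 (-2.17), and 3 were higher (median 0.85, with 0.28 under normexp and 0.41 both without a filter and with a filter on both arrays). They were IL6 at 336 and 1930 (2.48), PTGES at 75.7 and 261 (1.75) and PTGS2, dim in DU145-shC and at 21.9 in DU145-shESS2 cells (bound 1.30). Another probe of IL6, not well above background on both arrays of either line, gave 0.62 in PC3 and 0.37 in DU145. PTGES and PTGS2 thus had opposite signs in the lines, a difference that was not tested, and PTGS2 in DU145 was at 0.38 with normexp.

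**Figure D4:**
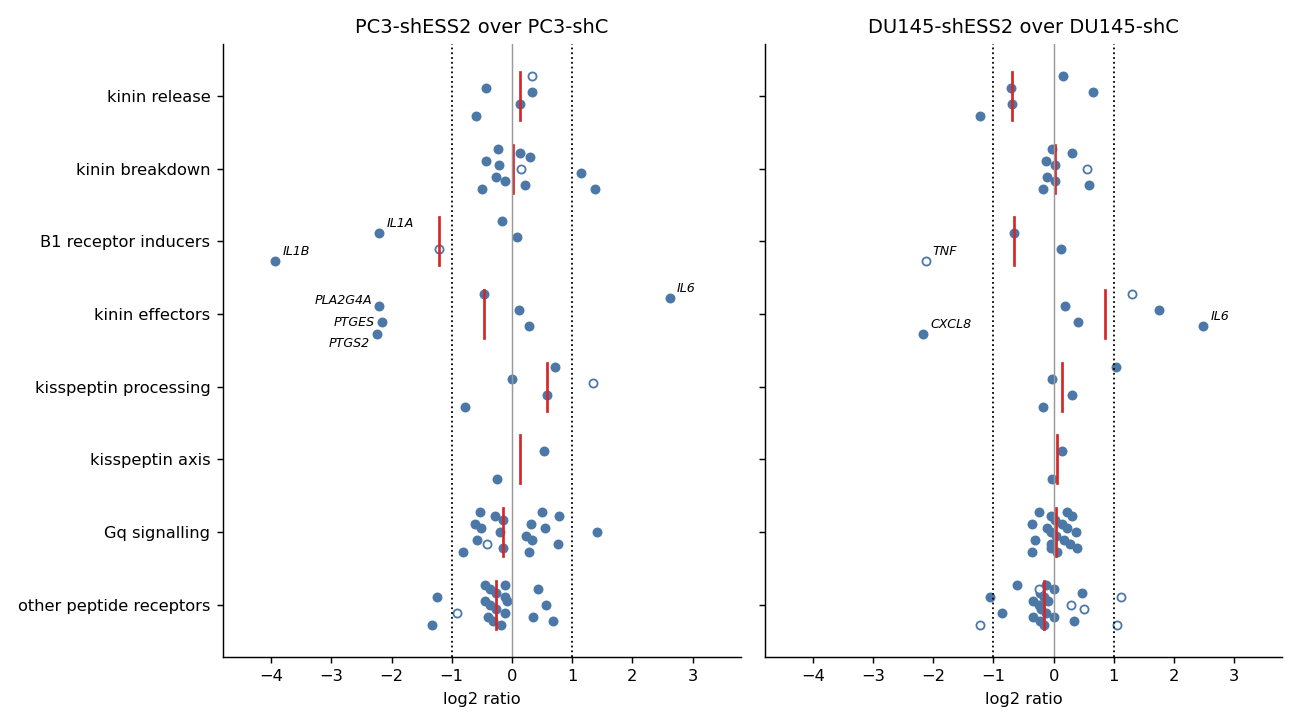
Log2 ratio of shESS2 over shC of each compared gene in 8 lists around the bradykinin and kisspeptin receptors, for PC3 (left) and DU145 (right), with the median of a list as a red line. Open points have an array not well above background, and dotted lines mark 2-fold. Vertical position within a list has no meaning, and genes beyond 2 are named. IL1B at -3.93 is the lowest point in PC3, and IL6 is the highest in both lines.

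On the kisspeptin side, 6 proteases that process or cut kisspeptins were listed. In PC3 none of the 5 compared was lower and MMP16 was higher, dim at 8.52 and then 25.0 (bound 1.34, and 0.24 with normexp). The list median was 0.59, with 0.242 under normexp and 0.293 both without a filter and with a filter on both arrays. MMP9, a gelatinase, had 832 and 1510 (0.72). In DU145, 1 of 4 was higher, MMP24 at 643 and 1350 (1.03, and 0.99 with normexp), with a list median of 0.14, and -0.102 without a filter. Of 7 genes of the kisspeptin neuron axis, GNRH1 and GNRH2 alone were compared, from -0.25 to 0.53, and neither passed 2-fold. TAC3, PDYN and GNRHR were not well above background.

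Gq proteins and phospholipase C act below all 3 receptors, and the list of Gq signalling genes also holds RGS, GRK and ARRB genes. Of the 23 listed, 0 of 19 compared in PC3 were lower and 1 was higher, PLCB4, a phospholipase C. It had 23.0 and 67.2 (1.41, and 0.45 with normexp). Another probe of PLCB1, not well above background on both arrays, gave -1.47 in PC3, while the probe used gave -0.28. The list median was -0.14, and from -0.248 to 0.0456 over the alternatives. In DU145, 0 of 20 passed 2-fold (median 0.04). The G protein genes GNAQ and GNA11 had ratios of 0.78 and -0.15 in PC3 and -0.05 and 0.17 in DU145.

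Other receptors of peptides were listed beside the members, which were chosen for their low ratios and so are not ranked against them. Of 71 on the arrays, 20 were well above background in PC3-shC, 19 in PC3-shESS2, 20 in DU145-shC and 22 in DU145-shESS2 cells. In PC3, 2 of 20 compared were lower and none higher (median -0.27, and -0.11 without a filter), GRPR, the bombesin receptor, at 59.4 and 26.0 (-1.33) and EDNRA, an endothelin receptor, at 80.3 and 37.2 (-1.25). The ratios of the 20 ran from -1.33 to 0.67. In DU145, 2 of 24 were lower and 2 higher (median -0.16). EDNRA had 18.6 and a dim 5.28 (bound -1.23) and F2RL2, a thrombin receptor cofactor, 77.2 and 38.2 (-1.06). C5AR1 had a bound of 1.12, and QRFPR, at a dim 9.7 in DU145-shC cells, had a ratio of 1.05. With normexp none of these 5 receptors passed 2-fold, and EDNRA did not pass it in either line when the probes of a gene were averaged.

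A single fit over the 4 arrays, blocked by line, is the only test of the knockdown that the design allows, and it was read for the lists alone. By limma with Benjamini-Hochberg adjustment, 0 of 17126 genes were called (0.0%), and 1047 had an unadjusted p under 0.05. IL6 had a mean log2 ratio of 2.55 (SE 0.18, adjusted p = 0.746 by limma). TNF had -1.67 (SE 0.29) with the same adjusted p of 0.746 by limma. The samples are single arrays of each condition, so these values measure only the spread between the lines.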

How the data were processed

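RNA of PC3 and DU145 cells with control or ESS2 shRNA was measured on 4 one-colour (Cy3) Agilent arrays, 1 per condition, from 0.1 µg of total RNA each. The authors deposited the scanner intensity of each spot, background-subtracted and spatially detrended by Feature Extraction (12.1.0.3 for PC3 and 12.0.3.1 for DU145 per the file headers), with no scaling between arrays. A deposited table of scaled intensity values equals this signal times 1 constant per array (3.65, 3.52, 6.17 and 6.09, with column medians of 41.6, 47.5, 77.6 and 77.3), and the purpose of the constants stays unknown. GeneSpring is named in the methods of the study with no settings. Flags for spots above background, saturated or outlying were deposited with the scores of the software.

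Log2 of the signal minus the 75th percentile of each array (263, 290, 212 and 218) over 60901 non-control spots was used, without outlier spots. Of the spots, 50.8 to 52.6% were well above background and 0 were saturated. The number of arrays limits the precision, and the spot-to-spot SD of a log2 ratio, over probes spotted 10 times, was 0.084 in PC3 and 0.082 in DU145. Symbols came from matching accessions to a RefSeq table of GRCh38.p14, which named 35080 of 58201 probes, 188 of them only by the older annotation release of the DU145 files. The array files use hg19, so no coordinates of genes or probes are given, and the promoter windows carry those of their own RefSeq table. A gene was the probe with the highest mean, compared where 1 or both arrays of a pair had it well above background. A dim value below the lowest signal that counts as well above background was raised to that signal, which makes the fold a bound. Dim values above that signal were kept, and their folds are no bounds. ECE2 and CPM of the kinin breakdown list were not matched, and a few marker, list and neighbour genes are not reported here.

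Calls were ratios past 2-fold, with no test inside a line. For the test across lines, limma used the 4 arrays with a term for cell line, leaving 1 residual degree of freedom, and genes above background on 2 or more arrays, at an adjusted p of 0.05. The members and lists were chosen with earlier results of these data known. The genes named are the members, ESS2 with reference and marker genes, list genes past 2-fold, the 3 nearest neighbours on each side, the 3 genes with the smallest Euclidean distance to each member, and others that a count or a range singled out after the values were seen. Alternatives were median scaling, quantile scaling, normexp with an offset of 50 on the median spot signal, no filter, a filter on both arrays, plain dim signals, the mean of probes, each probe alone, outlier spots kept, the authors' scaled values and, for limma, no block and genes above background on all 4 arrays. Those for the shC arrays were added after the data were seen. The 2-fold rule and the limma fit were tested on simulated data, but bounds, lists, nearest genes and motif searches were not. The software was R 4.3.3 with limma 3.58.1, and Python 3.11.15 with numpy 2.4.6, pandas 2.3.3 and matplotlib 3.10.9.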

Additional observations from a re-analysis of the deposited data

Results flagged for a closer look

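PTGES had a log2 ratio of -2.15 in PC3 and 1.75 in DU145, and PTGS2 had -2.24 in PC3 and 1.30, a bound, in DU145. The single array pairs of the lines moved in opposite directions, and the difference between the lines was not tested.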

How the results depend on the processing

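BDKRB2 and BDKRB1 in PC3 and KISS1R in DU145 kept their sign and stayed past 2-fold under every alternative that gave a value, from -7.95 to -5.33, -8.72 to -3.89 and -2.90 to -1.25. KISS1R in PC3 went from -2.27 to -0.73 with normexp. BDKRB2 in DU145 went from 0.16 to -0.063 with normexp, and KISS1 there from -0.03 to 0.0012 with scaling to the median and 0.0077 with quantile normalization. Between the shC arrays, KISS1 went from 0.06 to -0.109 with normexp and -0.388 with the authors' scaled values. The causes were not tested.

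With normexp the genes past 2-fold in PC3 were 323 lower and 248 higher (571 in all) rather than 649 and 650 (1299), and in DU145 77 and 139 (216) rather than 416 and 397 (813). Without a filter they were 1193 and 1431 (2624) in PC3 and 1061 and 959 (2020) in DU145. That setting counts dim genes and also takes their plain signals, and plain signals alone gave 736 and 849 in PC3. With a filter on both arrays 271 were lower in DU145. Scaling to the median shifted all ratios in PC3 by -0.10 and gave 803 lower and 511 higher, so that 61.1% of calls were lower, while the authors' scaled values shifted them by 0.09 and gave 535 and 792, with 40.3% lower. Pathway genes past 2-fold in PC3 were 8 lower and 5 higher, with normexp 5 and 1, and with no filter 15 and 11. In DU145 they were 5 and 6, with normexp 2 and 2, with no filter 10 and 12, and with a filter on both arrays 3 and 3. Of 144 list medians under alternatives, 96 moved by less than the spot SD and 14 changed sign. Limma called 0 genes under each alternative, also without the block, where 23 genes had an unadjusted p under 0.05.

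No paired analysis was possible because the labels hold no replicate numbers, beyond the block by cell line that the limma fit already has. Leaving out an array was not run, as it leaves a line with no comparison. Signals near background limit KISS1R in PC3 and every dim value.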
